A study of Homo sapiens with 30 samples.

Results

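The HOX clusters were followed through 67 regions of open chromatin, taken from 107672 such regions that cover the strongest ATAC-seq peaks of 30 libraries. A region counted as HOX when its centre lay in 1 of 4 windows of the human genome build hg19: chromosome 7 from 27.12 to 27.26 Mb (HOXA), chromosome 17 from 46.6 to 46.82 Mb (HOXB), chromosome 12 from 54.32 to 54.46 Mb (HOXC) and chromosome 2 from 176.94 to 177.06 Mb (HOXD). The windows hold 20, 23, 13 and 11 regions, in that order, and 38 HOX genes of these windows are the members described here. The windows are fixed positions, and no peak height entered the choice.

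ATAC-seq records where the transposase Tn5 can insert into DNA, and so marks open chromatin such as active promoters and enhancers. The libraries came from a pair of human endothelial cell lines, TeloHAEC, which derives from aortic endothelium and carries telomerase, and Eahy926, a hybrid made by fusing umbilical vein endothelial cells with a lung carcinoma line. There were 10 groups of 3 biological replicates. Libraries were prepared on 2 days. Each line had a control group on each of them (day 0 and day 1), and on day 1 also cells that received IL1b (10 ng/ml for 24 h), TNFa (10 ng/ml for 24 h) or an altered VEGF supply. VEGF was added to Eahy926, whose medium normally lacks it, and withheld from TeloHAEC, whose medium normally contains it, so the VEGF groups are not set against each other. Each origin is represented by a single line. Peaks of the hybrid Eahy926 were not assigned to its endothelial or its carcinoma parent. Each well holds a population of cells: a region open in fewer cells and a region less open in every cell cannot be told apart.

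HOX genes encode homeodomain transcription factors that give cells their position along the body axis. In each cluster the genes lie in the order in which they act: paralog groups 1 to 3 at one end serve anterior positions, groups 4 to 8 the trunk, and groups 9 to 13 at the other end posterior positions and limbs. Adult endothelial and stromal cells keep part of this pattern, with whole blocks of a cluster either open or held closed by Polycomb proteins. The comparison asks which blocks are open in each line, and whether cytokines or VEGF move them.

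The promoter sequences of 20 of the 38 members are in the RefSeq table used, on build GRCh38.p14. For 14 of the 20 the start in that table is the start used here. The 250 bases before the start are shown for 4 of these, because the peaks discussed next lie at the first 3 and none lies at the fourth. Capitals mark CG dinucleotides. HOXD1 (chr2:176188418-176188667, plus strand) and HOXD10 (chr2:176116528-176116777, plus strand) had their peaks in Eahy926, HOXA4 (chr7:27130758-27131007, minus strand) had one in both lines, and HOXD4 (chr2:176151300-176151549, plus strand) had no summit at its start in any library.
HOXD1: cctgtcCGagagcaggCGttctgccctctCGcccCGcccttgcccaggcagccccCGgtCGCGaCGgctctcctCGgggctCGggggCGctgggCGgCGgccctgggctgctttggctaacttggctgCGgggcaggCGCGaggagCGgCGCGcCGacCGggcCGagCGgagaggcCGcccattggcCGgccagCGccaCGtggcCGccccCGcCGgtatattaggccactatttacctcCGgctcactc
HOXD10: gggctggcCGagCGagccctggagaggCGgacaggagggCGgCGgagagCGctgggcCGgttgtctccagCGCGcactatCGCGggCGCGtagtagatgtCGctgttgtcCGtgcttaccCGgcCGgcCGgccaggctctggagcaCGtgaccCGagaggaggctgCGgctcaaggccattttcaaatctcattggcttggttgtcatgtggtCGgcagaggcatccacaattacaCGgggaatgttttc
HOXA4: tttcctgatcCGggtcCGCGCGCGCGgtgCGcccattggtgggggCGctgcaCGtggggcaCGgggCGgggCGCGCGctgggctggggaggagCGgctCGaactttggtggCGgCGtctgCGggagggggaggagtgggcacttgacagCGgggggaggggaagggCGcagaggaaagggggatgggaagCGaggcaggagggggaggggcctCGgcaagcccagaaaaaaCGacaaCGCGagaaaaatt
HOXD4: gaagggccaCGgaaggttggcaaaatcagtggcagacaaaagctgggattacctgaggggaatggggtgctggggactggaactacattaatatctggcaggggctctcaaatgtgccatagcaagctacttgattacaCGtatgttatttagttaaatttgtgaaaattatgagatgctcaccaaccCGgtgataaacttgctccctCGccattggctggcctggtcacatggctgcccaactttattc
These sequences hold 31 CG dinucleotides for HOXD1, 23 for HOXD10, 26 for HOXA4 and 4 for HOXD4. The median was 23 over the 14 HOX promoters and 10 over all 27305 promoters of the table. The 6 of the 14 with a summit in at least 8 libraries of a line held 11 to 40 (median 27), the 3 with fewer 8 to 28 (median 20), and the 5 without a summit in any library 4 to 27 (median 16), ranges that overlap. Motifs searched on both strands were few. TGATTGAT, a joint site of PBX and HOX proteins, lay before HOXA2 and HOXD11 (0.469% of all promoters hold it). TGACAG, a MEIS core, lay before HOXA2 and HOXA4 (3560 of the 27305 hold it), TATAAA before HOXA9 (11.3%) and TAATTA before HOXD11 (4.57%). The direct repeat of the retinoic acid response element with a spacer of 5 bases was in none of the 14 (0.00366%).

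The libraries kept 3577273 to 11404955 tags and gave 55668 to 141435 summits, with a median of 89799 summits in Eahy926 and 133072 in TeloHAEC. Libraries of day 0 were read as tags of 30 bp and those of day 1 as tags of 40 bp, per the file headers, so day and tag length cannot be told apart. The endothelial label was checked at fixed markers: a summit lay within 1 kb of the start of KDR and TIE1 in all 15 libraries of each line and of CDH5 in 15 of Eahy926 and 14 of TeloHAEC. VWF had one in 0 libraries of Eahy926 and 15 of TeloHAEC, and PECAM1 in none of either. Of 5 epithelial markers, CDH1 was without a summit in all 30 libraries, EPCAM and KRT19 had one in 0 of Eahy926 and in 7 and 11 of TeloHAEC, KRT8 in 15 and 1, and KRT18 in 11 and 12. The blood cell marker PTPRC had none. TEK had one in 11 and 14 libraries, and of the mesenchymal markers COL1A1 in 12 and 13 and ACTA2 in 1 and 15. The part of these markers in the HOX differences was not tested. The marker starts were written from general knowledge and not checked, and whether a missing summit reflects the start used was not tested.

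Because the deposited peak lists hold no counts per region, regions were compared by the place of their peak when each library's peaks are ordered from the smallest to the largest p. The shortest list has 49774 peaks, and the others were shortened to this number. Place 1 is the strongest peak, and the rank score is the log2 of the list length plus 1 over the place, so that a score higher by 1 is a place 2 times nearer the top. A region with no peak in the shortened list has the score 0 and is called not listed; it may still hold a weaker peak. A peak is called strong when it is among the first 45000. Each region carries the name of the member with the nearest start and its signed distance from it, negative being upstream, and is a promoter region within 1 kb.

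HOXC and HOXD held many strong peaks in Eahy926 and few in TeloHAEC, while HOXA and HOXB held similar numbers of strong peaks in both lines. In the HOXC window the 15 libraries of Eahy926 held 7 to 10 strong peaks (median 9) and those of TeloHAEC 0 to 2 (median 1), 4 of the latter having none. In the HOXD window the range was 5 to 10 (median 8) against 1 to 4 (median 2). Neither pair of ranges overlaps. In the HOXA window it was 5 to 15 (median 8) against 5 to 9 (median 7), and in the HOXB window 4 to 14 (median 7) against 4 to 10 (median 7), which overlap. Strong peaks of all 4 windows numbered 24 to 47 per library in Eahy926 and 12 to 22 in TeloHAEC. The length covered by strong peaks of HOXC was 3050 ± 412 bp in Eahy926 and 190.0 ± 152 bp in TeloHAEC (SD, n = 15 each).

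**Figure D1:**
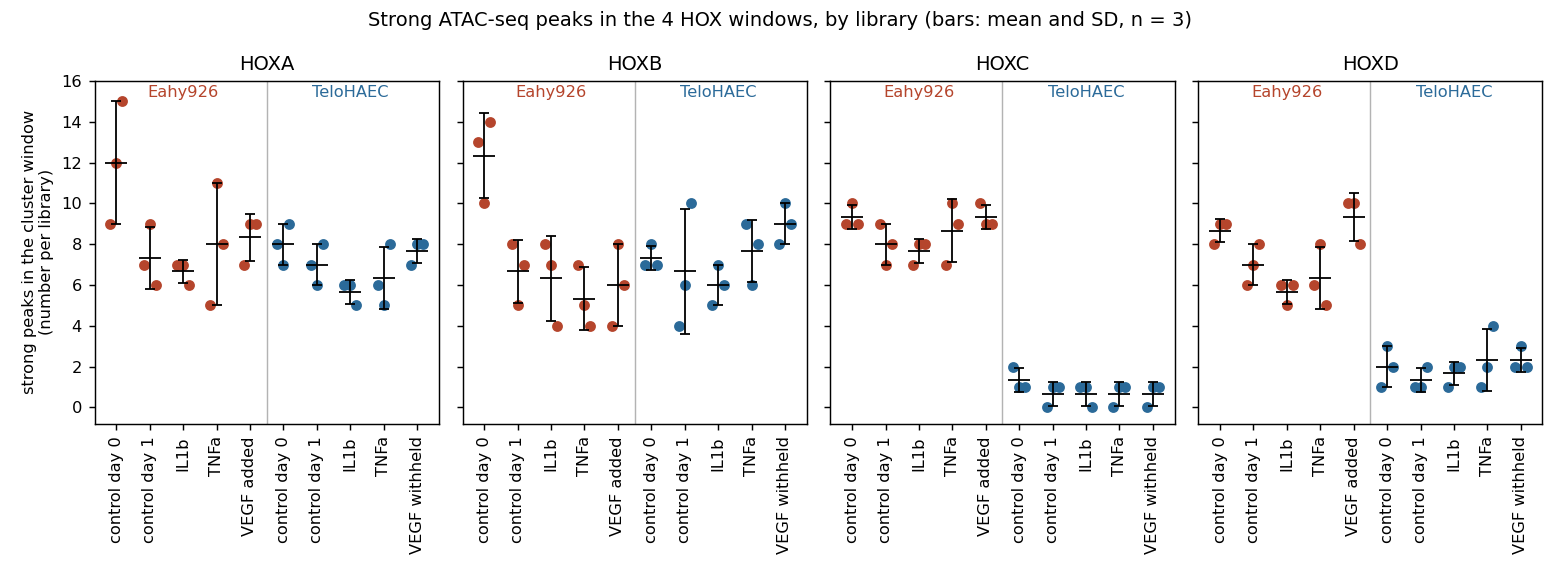
Number of strong peaks per library (vertical axis) in each HOX window, by group (horizontal axis). Points are libraries and bars the mean and SD of 3. In HOXC all 15 TeloHAEC libraries hold 0 to 2 and all 15 Eahy926 libraries 7 to 10, in every treatment group.

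The whole lists, weak peaks included, gave the same picture for HOXC and HOXD. Per 100000 summits of a library, HOXC held 13.6 to 25.1 in Eahy926 and 1.25 to 3.61 in TeloHAEC, and HOXD 10.8 to 23.1 and 4.6 to 7.86. HOXB held 10.2 to 24.5 in Eahy926 and 15.6 to 30.8 in TeloHAEC, and HOXA 16.2 to 29.5 and 13.7 to 23.9, ranges that overlap.

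At the gene starts, a summit lay within 1 kb in at least 8 of 15 libraries for 17 of 38 members in Eahy926 and 12 in TeloHAEC, 7 of them in both. These 7 were HOXA4, HOXA13, HOXB6, HOXB7, HOXB9, HOXC10 and HOXD1. In HOXC the number was 6 of 9 members in Eahy926 and 1 in TeloHAEC, and in HOXD 4 of 9 and 1. In HOXB it was the reverse, 3 of 10 in Eahy926 and 7 in TeloHAEC. HOXB2, HOXB4 and HOXB5 had summits in 10, 15 and 14 libraries of TeloHAEC and in 0 of Eahy926. HOXC6, HOXC9, HOXD8 and HOXD9 had them in 15, 15, 15 and 13 libraries of Eahy926 and in 0 of TeloHAEC, as had HOXA7 and HOXA9 in 4 and 6. Whole lists of TeloHAEC were mostly longer, and the part of list length in these counts was not tested. Among equally many peaks, HOXB4 and HOXB5 had a strong promoter peak in 10 and 4 libraries of TeloHAEC, and HOXB2 had no promoter region.

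In 12 members no library of either line had a summit at the start: HOXA3, HOXA6, HOXB1, HOXB3, HOXB8, HOXC11, HOXC12, HOXD3, HOXD4, HOXD11, HOXD12 and HOXD13. By paralog group these were 4 of 7 members of groups 1 to 3, 3 of 15 of groups 4 to 8, and 5 of 16 of groups 9 to 13. For HOXA3, HOXB3, HOXD3 and HOXD13 the RefSeq table gives another start than the one used here, and that start was not examined.

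**Figure D2:**
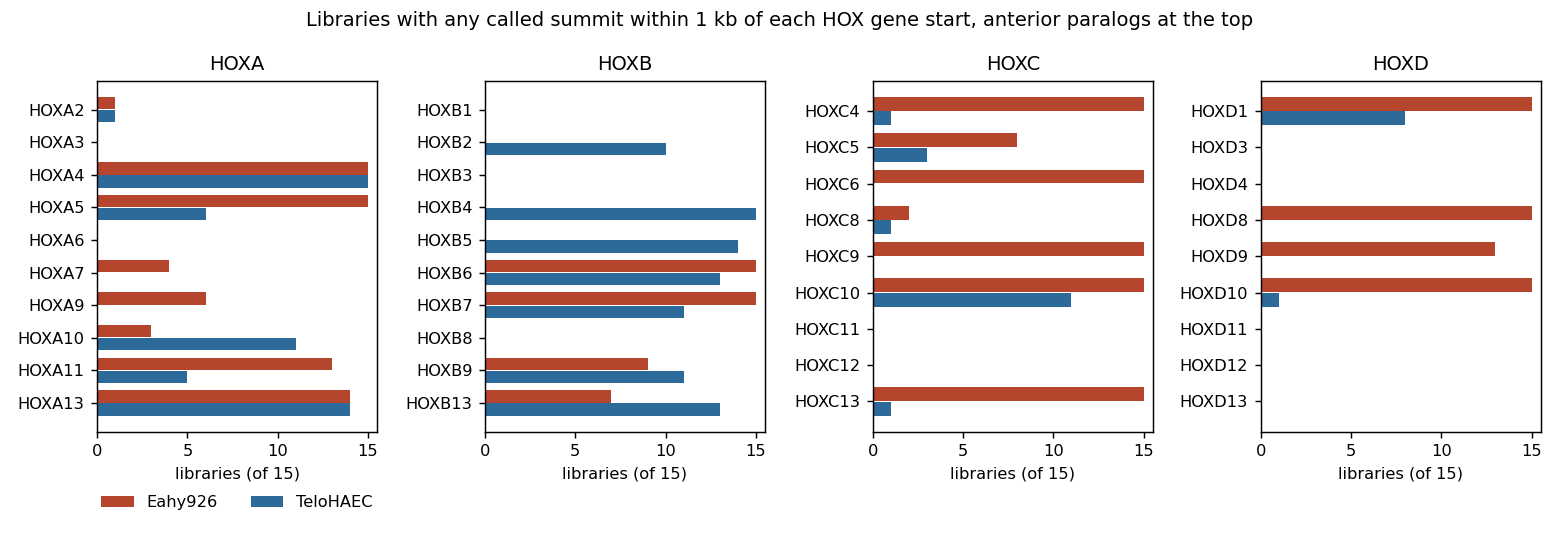
Number of libraries, of 15 per line (horizontal axis), with a summit within 1 kb of the start of each member (vertical axis, anterior paralogs at the top). HOXC4, HOXC6, HOXC9, HOXC10 and HOXC13 reach 15 in Eahy926, while HOXB2, HOXB4 and HOXB5 have bars for TeloHAEC alone.

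The lines were then compared region by region in the 12 untreated libraries, 6 per line, with limma and preparation day as a term. A region was tested when at least 3 of these libraries had a strong peak in it, which 39 of the 67 HOX regions met. Of the 39, 20 were lower in TeloHAEC (51.3%) and 1 was higher. Over all 64280 regions tested, 18.1% were lower and 19.6% higher. In 12 HOX regions every Eahy926 library ranked above every TeloHAEC library, and in 0 the opposite; over all regions these shares were 6.65% and 8.67%. The median change in rank score (TeloHAEC minus Eahy926) was -0.41 over the HOX regions and -0.08 over all. Where all 6 libraries of a line are not listed, that line adds no spread, and the p of such a region can be too small. Such a region also meets the filter through the other line alone. Listing in all 6 libraries of that other line is then enough for no overlap. Of the 20 lower HOX regions, 9 were listed in no TeloHAEC library. The shares over all regions come from the same filter.

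The 20 lower regions were spread unevenly: 7 of 8 tested in HOXC, 7 of 8 in HOXD, 3 of 11 in HOXA and 3 of 12 in HOXB. Median changes were -1.15 in HOXC, -0.89 in HOXD, 0.01 in HOXA and -0.25 in HOXB. The chromosomes that carry the clusters differ too: 28.8% of tested regions of chromosome 12 were lower, with a median of -0.33, against 15.6% and 0.06 on chromosome 2, 14.7% and 0.03 on chromosome 7, and 19.9% and -0.24 on chromosome 17. With scores centred on each chromosome's median, 16 of the 20 were still called. By paralog group, 2 of 4 tested regions were lower in groups 1 to 3, 8 of 20 in groups 4 to 8, and 10 of 15 in groups 9 to 13. These pooled counts mix block and cluster. In groups 9 to 13, 3 of 3 were lower in HOXC, 5 of 5 in HOXD, 1 of 2 in HOXA and 1 of 5 in HOXB. In groups 4 to 8 these were 4 of 5, 1 of 2, 1 of 6 and 2 of 7. A difference between blocks apart from the cluster was not tested. Promoter regions were lower in 11 of 16, distal regions in 7 of 21. A further 2, HOXA2 +6.7 kb and HOXD13 -12.7 kb, lie nearer the start of a gene that is no member.

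**Figure D3:**
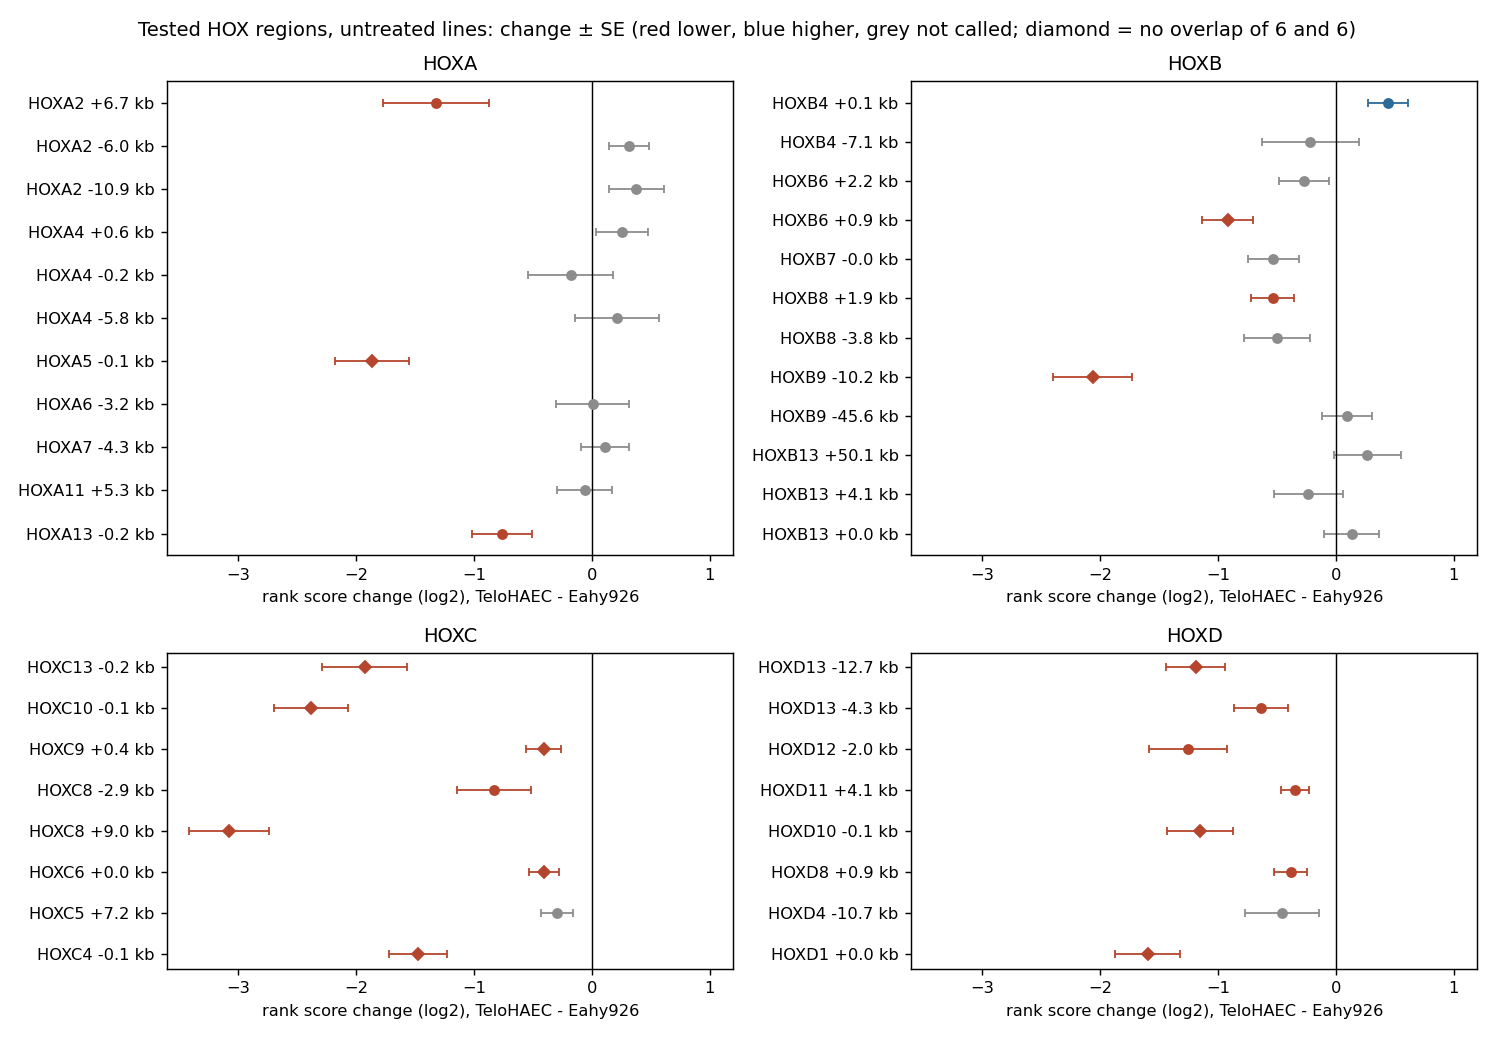
Change in rank score between the untreated lines (horizontal axis, log2, TeloHAEC minus Eahy926, bars are SE) for the 39 tested HOX regions in order along each chromosome (vertical axis). Red is lower, blue higher and grey not called, and diamonds mark no overlap between the 6 and 6 libraries. In HOXC and HOXD 14 of 16 points are red, in HOXA and HOXB most are grey.

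HOXC gave the largest differences. The region HOXC8 +9.0 kb (hg19 chr12:54411603-54412103) lies between HOXC8 and HOXC6. In the RefSeq table HOXC4, HOXC5 and HOXC6 share an upstream start 7903 bp from that of HOXC8. This region, 9021 bp from the HOXC8 start, lies past that common start by more than the 1 kb of a promoter region. The region nearer to it is HOXC8 +7.8 kb (7820 bp), strong in 3 of 15 Eahy926 libraries and 0 of TeloHAEC and not tested. The peak of HOXC8 +9.0 kb held places 2402 to 11517 (median 6837) in the 6 untreated Eahy926 libraries. It was not listed in any of the 15 TeloHAEC libraries. The change was -3.08 ± 0.34 (SE; limma adjusted p = 4.44e-06), -3.71 ± 0.41 within day 0 and -2.45 ± 0.39 within day 1. The promoter region of HOXC10 (chr12:54378557-54379057), a posterior gene of hindlimb and lumbar positions, held places 4130 to 18584 (median 10297.5) in untreated Eahy926. In TeloHAEC it was listed in 1 of 15 libraries, an untreated one of day 0, at place 43428. Its start was not without signal there: weaker summits within 1 kb were present in 11 of 15 whole TeloHAEC lists. The change was -2.38 ± 0.31 (limma adjusted p = 2.24e-05), -3.02 ± 0.36 on day 0 and -1.74 ± 0.33 on day 1.

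HOXC13, the most posterior gene of its cluster and known from hair follicle and nail, had a promoter peak (chr12:54332119-54332619) at places 9839, 9291 and 9875 on day 0 and 49295, 14953 and 7564 on day 1 in untreated Eahy926, and was not listed in TeloHAEC. The change was -1.93 ± 0.36 (limma adjusted p = 0.000568), and on day 1 alone the region had too few strong peaks to be tested. HOXC4, at the anterior end of HOXC, had a promoter peak (chr12:54447339-54447839) at places 10525 to 21722 (median 19603.5) in untreated Eahy926 and was not listed in TeloHAEC, a change of -1.48 ± 0.25 (limma adjusted p = 0.000201). The whole lists hold a summit at the start of HOXC13 and of HOXC4 in 1 of 15 TeloHAEC libraries each. In Eahy926 strong peaks were thus found at both ends of the cluster, while the starts of HOXC11 and HOXC12 had no summit in any library.

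The promoter peaks of HOXC6 and HOXC9 were weak. HOXC6 (chr12:54421966-54422466) held places 31282 to 49754 and HOXC9 (chr12:54394044-54394544) 22689 to 44470 in untreated Eahy926, and neither was listed in TeloHAEC. Their changes were -0.41 ± 0.12 (limma adjusted p = 0.017) and -0.41 ± 0.15 (0.0388), and neither was called with scores centred by chromosome (0.617 and 0.676). The HOXC9 call was also lost without any 1 of 8 of the 12 libraries, namely all 6 of TeloHAEC, Eahy926 day 0 replicate 3 and Eahy926 day 1 replicate 1, with adjusted p up to 0.0716. The region that TeloHAEC shares is HOXC8 -2.9 kb (chr12:54399647-54400147), with a strong peak in 15 libraries of Eahy926 and 11 of TeloHAEC. It held places 11286 to 30383 in untreated Eahy926 and 21686 to 31914 in 5 of 6 untreated TeloHAEC libraries, which overlap. Its change of -0.83 ± 0.31 (limma adjusted p = 0.0422) was lost in 10 of 12 fits that left out 1 library, all but those without Eahy926 day 1 replicate 1 or TeloHAEC day 1 replicate 3, with adjusted p up to 0.1.

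In HOXD the promoters of HOXD1 and HOXD10 ranked higher in Eahy926, while the starts of HOXD11, HOXD12 and HOXD13 had no summit in either line. The promoter region of HOXD1 (chr2:177053064-177053564), the anterior gene whose sequence is shown above, held places 9982 to 25998 (median 18179) in untreated Eahy926 and was not listed in any TeloHAEC library. The change was -1.59 ± 0.28 (limma adjusted p = 0.000269), -1.82 ± 0.38 on day 0 and -1.37 ± 0.28 on day 1. Weaker summits at the HOXD1 start were present in 8 of 15 TeloHAEC lists before shortening. HOXD10 (chr2:176981125-176981625), a posterior gene of limb and lumbar positions, held places 17179, 18411 and 9775 on day 0 and 39754, 48539 and 21466 on day 1 in untreated Eahy926, and was not listed in TeloHAEC, where 1 of 15 whole lists held a summit at its start. Its change was -1.15 ± 0.28 (limma adjusted p = 0.00411), and it was not tested on day 1 alone. The promoter regions nearest the starts of HOXD8 and HOXD9 had strong peaks in 3 and 7 of 15 Eahy926 libraries and in 0 of TeloHAEC. These were too few for a test in the untreated lines. The other promoter region of HOXD8, HOXD8 +0.9 kb, was strong in 5 libraries of Eahy926 and 0 of TeloHAEC. It was tested and called lower (-0.38 ± 0.14, limma adjusted p = 0.0379).

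Beyond the posterior end of HOXD, HOXD13 -12.7 kb (chr2:176944573-176945073) held places 10422 to 34509 (median 25114) in untreated Eahy926 and was not listed in TeloHAEC, a change of -1.19 ± 0.25 (limma adjusted p = 0.00144). HOXD12 -2.0 kb (chr2:176962241-176962741) had strong peaks in both lines, in 14 and 10 libraries, and differed by -1.25 ± 0.33 (limma adjusted p = 0.00732). That call was lost with an overlap of 80% (a change of -0.42) and in the controls of day 1 alone (-0.80 ± 0.36, 0.117), beside -1.71 ± 0.43 on day 0. HOXD13 -4.3 kb, HOXD11 +4.1 kb and HOXD8 +0.9 kb were called lower by -0.63, -0.35 and -0.38, and each lost its call without any 1 of the 3 TeloHAEC libraries of day 0. HOXD13 -4.3 kb also lost it without Eahy926 day 1 replicate 3, HOXD11 +4.1 kb without Eahy926 day 0 replicate 1 or 2 or day 1 replicate 2, and HOXD8 +0.9 kb without Eahy926 day 0 replicate 2 or 3 or day 1 replicate 3 (adjusted p up to 0.0817). HOXD4 -10.7 kb (chr2:177005161-177005661), inside the cluster, was the exception. It had a strong peak in all 30 libraries, at places 10030 to 27375 in untreated Eahy926 and 15172 to 27846 in untreated TeloHAEC, and its change of -0.46 ± 0.31 was not called (limma adjusted p = 0.242).

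HOXA had strong peaks in both lines around HOXA4 to HOXA6, where the promoter of HOXA5 differed between them and that of HOXA4 was not called. The promoter region of HOXA5 (chr7:27183153-27183653), a trunk gene also known to hold back endothelial growth, held places 7681, 5618 and 12217 on day 0 and 19226, 17389 and 29673 on day 1 in untreated Eahy926. In TeloHAEC it was listed in 1 of 15 libraries, an untreated one of day 0 at place 40376. The change was -1.87 ± 0.31 (limma adjusted p = 0.000214), -2.52 ± 0.36 on day 0 and -1.21 ± 0.29 on day 1. Weak summits at the HOXA5 start were present in 6 of 15 whole lists of TeloHAEC.

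The neighbour HOXA4 (chr7:27170332-27170832) had a promoter peak in all 30 lists. It held places 7648 to 44194 (median 19266) in untreated Eahy926 and 14309 to 26957 (median 22446.5) in untreated TeloHAEC, ranges that overlap, and its change of -0.18 ± 0.36 was not called (limma adjusted p = 0.708). The sign was not stable: the change was 0.01 without Eahy926 day 0 replicate 2 and 0.57 in the controls of day 1 alone. HOXA4 -5.8 kb and HOXA6 -3.2 kb were likewise open in both, with changes of 0.21 ± 0.36 and 0.01 ± 0.31 (limma adjusted p = 0.654 and 0.988). At the posterior end, HOXA13 (chr7:27239684-27240184), a gene of the distal limb and hindgut, had a strong promoter peak in 11 libraries of Eahy926 and 5 of TeloHAEC. Its change of -0.76 ± 0.25 (limma adjusted p = 0.0247) was lost without TeloHAEC day 0 replicate 1 or 2 (adjusted p up to 0.0677), and was -1.13 ± 0.32 on day 0 and -0.40 ± 0.24 on day 1, where it was not called (0.235). HOXA7, HOXA9, HOXA10 and HOXA11 had strong promoter peaks in 0 to 2 libraries per line. The whole lists held a summit at their starts in 4, 6, 3 and 13 libraries of Eahy926 and in 0, 0, 11 and 5 of TeloHAEC.

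The region HOXA2 +6.7 kb (chr7:27135463-27135963) was strong in all 30 libraries. It held places 2820 to 6989 in untreated Eahy926 and 5335 to 26250 in untreated TeloHAEC, which overlap, a change of -1.32 ± 0.45 (limma adjusted p = 0.0268). The difference lay in the day 1 controls, -2.29 ± 0.59 (0.0181), with -0.36 ± 0.48 on day 0 (0.588). It was lost without TeloHAEC day 0 replicate 2, without Eahy926 day 1 replicate 1 or 3, and without TeloHAEC day 1 replicate 1 or 2 (adjusted p up to 0.0684).

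HOXB had differences in both directions. HOXB4 and HOXB5, trunk genes of which HOXB4 is known from blood stem cells, had promoter peaks in TeloHAEC only. HOXB4 (chr17:46655428-46655928) held places 22477, 37638 and 23369 in the 3 TeloHAEC controls of day 0, was not listed in the 3 controls of day 1, and was listed in 7 of the 9 treated libraries of day 1. No Eahy926 library listed it. The change of 0.44 ± 0.17 was the 1 higher call (limma adjusted p = 0.0459). It was 0.88 ± 0.22 on day 0 and could not be tested on day 1, and it was lost without Eahy926 day 0 replicate 1, 2 or 3 (adjusted p up to 0.0988). Without any TeloHAEC control of day 0 the region had too few strong peaks to be tested. HOXB5 (chr17:46671168-46671668) held places 28487, 8765 and 47605 in the TeloHAEC controls of day 0 and was listed in 1 library of each treatment, too few for a test.

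In 3 other HOXB regions TeloHAEC was lower, 1 of 5 tested in groups 9 to 13 and 2 of 7 in groups 4 to 8. HOXB9 -10.2 kb (chr17:46713776-46714276), upstream of a trunk and lumbar gene, held places 6510 to 18225 (median 8225) in untreated Eahy926, while in TeloHAEC 5 of 6 untreated libraries listed it at 25856 to 49530. The change was -2.06 ± 0.33 (limma adjusted p = 0.000143), -2.51 ± 0.31 on day 0 and -1.61 ± 0.50 on day 1. HOXB6 +0.9 kb (chr17:46681228-46681728), just inside the transcribed side of a trunk gene, was listed in 15 libraries of Eahy926 and 4 of TeloHAEC, with a change of -0.92 ± 0.22 (limma adjusted p = 0.00334). HOXB8 +1.9 kb was lower by -0.54 ± 0.18 (limma adjusted p = 0.0285), a call lost without any 1 of the 3 TeloHAEC controls of day 0 (up to 0.0717) and with scores centred by chromosome (0.096). HOXB7 had a strong promoter peak in 7 and 1 libraries and was not called (-0.53 ± 0.21, limma adjusted p = 0.0565). HOXB4 -7.1 kb (chr17:46662622-46663122) was strong in all 30 libraries, with a change of -0.22 ± 0.41 (limma adjusted p = 0.694). HOXB13, the separate posterior gene of HOXB known from prostate and hindgut, had a strong promoter peak in 2 and 6 libraries (0.13 ± 0.23, limma adjusted p = 0.66); in the controls of day 1 alone it was higher in TeloHAEC (0.78 ± 0.20, 0.0188).

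**Figure D4:**
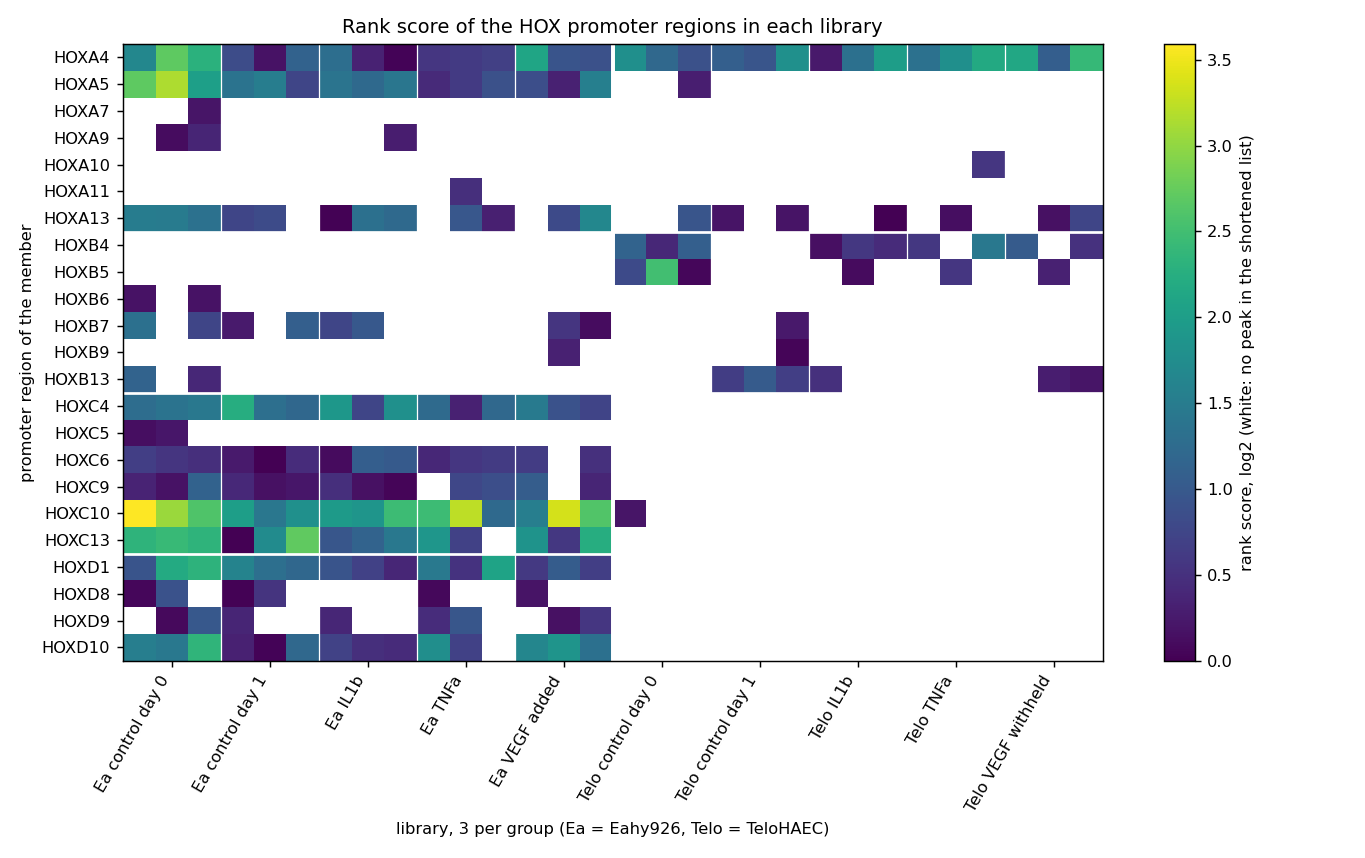
Rank score (colour, log2; white is not listed) of the promoter region of the 23 members that have one (vertical axis) in each of the 30 libraries (horizontal axis, 3 per group). HOXC4, HOXC10 and HOXD1 are filled in all 15 Eahy926 libraries, every HOXC and HOXD promoter but HOXC10 in 1 library is white in TeloHAEC, and HOXA4 is filled in all 30.

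The pattern was looked for again in the treated libraries, which the comparison of untreated lines does not use. Of the 20 regions lower in TeloHAEC, 12 had no strong peak in any of its 9 treated libraries, and 10 in none of its 15. Of all 20, 8 were strong in all 15 Eahy926 libraries. Within IL1b, 18 of the 20 were tested, 17 had a negative change, 6 were called lower, and the median change was -0.94. Within TNFa these numbers were 18, 17, 4 and -0.59. Of all regions that were lower in untreated TeloHAEC and tested again, 94% and 91% had a negative change, and 36.8% and 30.1% were called.

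Among all 42 HOX regions tested within IL1b, 6 were lower and 0 higher in TeloHAEC, against 8.32% lower and 11.1% higher over all regions. Within TNFa, 4 were lower and 0 higher, against 7.6% and 8.77%. HOXC8 +9.0 kb, HOXC10 and HOXB9 -10.2 kb were called with both cytokines. For HOXC8 +9.0 kb the Eahy926 libraries held places 17597, 9306 and 2182 with IL1b and 6412, 16431 and 18516 with TNFa. Its changes were -2.81 ± 0.55 and -1.99 ± 0.55 (limma adjusted p = 0.000609 and 0.0123). For HOXC10 the places were 12880, 13639 and 9002 with IL1b and 8995, 5313 and 21359 with TNFa. Its changes were -2.10 ± 0.46 and -2.31 ± 0.46 (limma adjusted p = 0.00181 and 0.000985). For HOXB9 -10.2 kb, Eahy926 held 12629, 6925 and 8243 with IL1b and 8625, 6584 and 7402 with TNFa, and 1 of 3 TeloHAEC libraries listed it with each. HOXA5, HOXC4 and HOXC6 were called within IL1b (limma adjusted p = 0.00275, 0.0052 and 0.0169) and HOXD1 within TNFa (0.00465). Whether the gap between the lines differs between cytokines was not tested. Without Eahy926 TNFa replicate 3, 7 regions were lower within TNFa.

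Within each line the treatments were compared with the 3 untreated controls of day 1, which all 3 comparisons of a line share. No HOX region was called by limma in any of the 6 comparisons, among 24 tested in TeloHAEC and 35 in Eahy926. The shares called over all regions were 0.334% (IL1b), 0.00341% (TNFa) and 0% (VEGF withheld) in TeloHAEC, and 0.00353% (IL1b), 0.267% (TNFa) and 0% (VEGF added) in Eahy926. At such shares a count of 0 among 24 or 35 regions is close to the background and says little about HOX regions in particular. At an unadjusted p under 0.05 there were 1, 1 and 3 HOX regions in TeloHAEC and 0, 1 and 2 in Eahy926. The count stayed 0 under each alternative run, including normal scores. Median absolute changes of the HOX regions were 0.18, 0.14 and 0.24 in TeloHAEC and 0.18, 0.40 and 0.30 in Eahy926. Over all regions they were 0.35, 0.34 and 0.30 in TeloHAEC and 0.27, 0.32 and 0.29 in Eahy926. Between the untreated lines the value was 0.44 for the HOX regions and 0.50 for all.

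Most HOXC promoter peaks were also listed in the treated libraries of Eahy926. Of these 9 libraries, HOXC10 and HOXC4 were listed in 9, HOXC13 and HOXC6 in 8, HOXC9 in 7 and HOXC5 in 0. HOXC10 held places 17148, 4854 and 8111 with added VEGF, beside 12385, 18584 and 14248 in the day 1 controls. HOXC4 held 13378, 29571 and 14243 with IL1b, 21128, 39607 and 21402 with TNFa and 17785, 26708 and 29749 with added VEGF, beside 10525, 19998 and 21722 in the controls. HOXD1 held 26097, 30636 and 38272 with IL1b, all below the controls at 16381, 19977 and 21702, a change of -0.70 ± 0.50 that was not called (limma adjusted p = 1). HOXD10 held 15932, 13778 and 19817 with added VEGF, all above the controls at 39754, 48539 and 21466, a change of 1.08 ± 0.49 (limma adjusted p = 0.967).

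The regions of smallest p are given by rule, with none called. In TeloHAEC the HOXB13 promoter came first in all 3 comparisons. It held places 31652, 24304 and 31426 in the day 1 controls, was listed in 1 library with IL1b (35080), in none with TNFa and in 2 without VEGF (40937 and 43365). The changes were -0.61 ± 0.24, -0.78 ± 0.24 and -0.62 ± 0.24 (limma adjusted p = 0.337, 0.484 and 0.974). These 3 controls are shared, and the 3 TeloHAEC controls of day 0 did not list the region. Next came HOXA2 -10.9 kb and HOXC8 -2.9 kb for IL1b (-0.58 and -0.50), HOXB4 and HOXA2 +6.7 kb for TNFa (0.67 and 0.84), and HOXB8 -3.8 kb and HOXB5 -4.2 kb for withheld VEGF (1.29 and 0.54). In Eahy926 they were HOXB8 -3.8 kb, HOXC6 and HOXD1 for IL1b (-0.63, 0.49 and -0.70), HOXA2 +6.7 kb, HOXA2 -10.9 kb and HOXB13 +50.1 kb for TNFa (-1.88, 0.65 and 0.70), and HOXA2 +6.7 kb, HOXD10 and HOXC10 +4.2 kb for added VEGF (-1.48, 1.08 and 0.39). The change at HOXA2 +6.7 kb with TNFa was the widest of these. The Eahy926 controls of day 1 held places 3133, 5113 and 2820 there, and the TNFa libraries 17135, 7884 and 16708, with no overlap (limma adjusted p = 0.359).

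Whether a response differed between the lines was tested as an interaction over the 24 libraries of day 1. None of 42 HOX regions was called for IL1b or for TNFa, where 0.258% and 0.0518% of all regions were, and 1 and 2 HOX regions had an unadjusted p under 0.05. The smallest adjusted p were 0.299 and 0.218 by limma, both at the HOXB13 promoter.

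**Figure D5:**
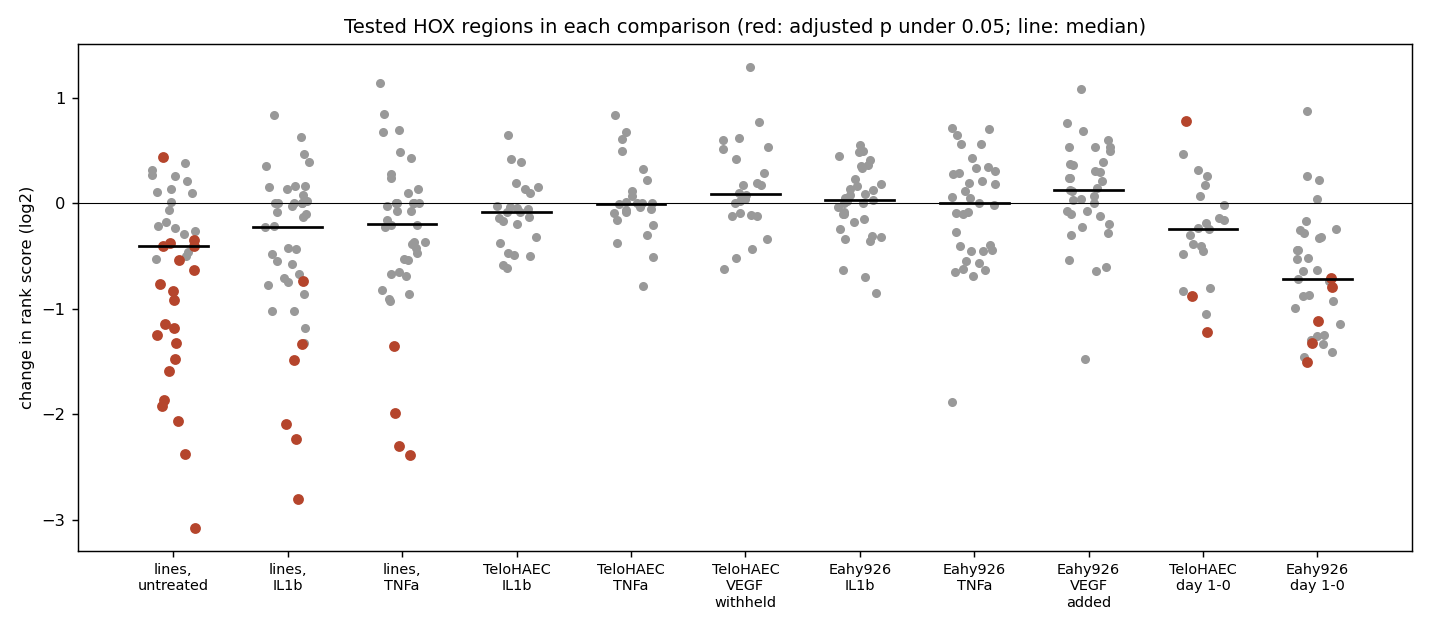
Change in rank score (vertical axis, log2) of every tested HOX region in 11 comparisons (horizontal axis); the lines comparisons are TeloHAEC minus Eahy926, the day comparisons day 1 minus day 0. Red points have an adjusted p under 0.05 and black lines are medians. Red points occur between lines and between days, and none under IL1b, TNFa or VEGF within a line.

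The days of preparation were compared in the controls of each line. HOX regions were called in either direction at shares near the background, but in Eahy926 all calls were lower on day 1. At an unadjusted p under 0.05 there were 16 of 35 HOX regions in Eahy926 (35.5% of all regions). In TeloHAEC there were 4 of 22 (30.2% of all). In Eahy926, 5 of 35 tested HOX regions were lower on day 1 and 0 higher, against 17.6% of all regions in either direction and 9.47% lower; the median change was -0.72 over the HOX regions and -0.05 over all. The 5 were HOXB8 +1.9 kb, HOXB13 +4.1 kb, HOXA11 +5.3 kb and both promoter regions of HOXA4. The HOXA4 -0.2 kb region went from places 15756, 7648 and 10121 on day 0 to 27973, 44194 and 22776 on day 1, a change of -1.51 ± 0.44 (limma adjusted p = 0.0358). In TeloHAEC, 3 of 22 were called, against 11.6% of all regions: HOXA4 +0.6 kb and HOXB4 were lower on day 1 (-1.22 ± 0.33 and -0.88 ± 0.27, limma adjusted p = 0.0349 and 0.048) and the HOXB13 promoter higher (0.78 ± 0.23, 0.0437). All 3 calls of TeloHAEC were lost when any 1 of the 6 libraries was left out, and in Eahy926 0 to 4 calls were left, with 0 without day 0 replicate 2, 1 without day 0 replicate 1 or 3 or day 1 replicate 1, and 3 without day 1 replicate 2. Of the 20 regions lower in untreated TeloHAEC, 17 were called in the controls of day 0 alone and 9 of the 13 that could be tested in those of day 1 alone.

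HOX proteins bind DNA with partners of the PBX, MEIS and PKNOX families. Within 50 kb of 9 such genes 41 regions were tested between the untreated lines. TeloHAEC was higher in 10 and lower in 3, and the median change was 0.02, beside 19.6%, 18.1% and -0.08 over all regions. At the promoters, PKNOX1 had a strong peak in all 30 libraries and was not called (0.23 ± 0.53, limma adjusted p = 0.745). MEIS2 was strong in 15 and 7 libraries and lower in TeloHAEC (-1.18 ± 0.29, limma adjusted p = 0.00399), and PBX4 in 0 and 6 and higher (0.35 ± 0.13, 0.0421). PBX2 (-0.32 ± 0.29), PBX3 (0.50 ± 0.42), MEIS1 (-0.45 ± 0.36) and PKNOX2 (0.14 ± 0.12) were not called, and MEIS3 had no summit at its start. Within a line, no region of the list was called by limma under any treatment, among 38 tested in TeloHAEC and 28 in Eahy926. The shares called over all regions were 0% to 0.334%, so this count is close to the background and says little about the list.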

How the data were processed

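The submitters' processing notes name Bowtie2, MACS2 and the build hg19. The peak caller was version 2.1.1.20160309 per the file headers, run on each library alone and without a control. The deposited tables give, per summit, the pileup (the authors' coverage), the p and the q value as the authors' −log10, and a ratio to local background (the authors' fold enrichment). None was compared between libraries as a value. Summits of 1 interval were merged, the 22 autosomes kept, lists ordered by p and shortened to 49774 peaks. Regions of 501 bp were set around the 45000 strongest peaks of each library without overlap, and a peak counted when it covered at least 50% of the shorter.

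Rank scores were fitted with limma 3.58.1 (R 4.3.3; moderated test with trend, two-sided) over every region strong in 3 or more of the libraries fitted. P-values were adjusted after Benjamini and Hochberg over all these regions, with a threshold of 0.05. The ± of a change is its SE. The fits were tested on simulated data. Python 3.11.15, numpy 2.4.6, pandas 2.3.3 and matplotlib 3.10.9 did the rest.

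No hg19 annotation was given, so the starts were written from general knowledge. Only those of the HOX members were checked, not those of the markers, cofactors or other listed genes. Against the RefSeq table (GRCh38.p14) 38 of 38 lay on the same chromosome and 30 of 38 had the same spacing within 500 bp; HOXA3, HOXA10, HOXB3, HOXC4, HOXC5, HOXC6, HOXD3 and HOXD13 have another start there. The members, lists and tests were chosen with earlier results of these data known. Named are each member's promoter region, the regions called between untreated lines without overlap (up to 5 per direction and cluster), the 3 of smallest p per treatment, and the promoters of the fixed lists, of which some are not reported here; other called regions are named although the rule does not ask for it. Depth and list length differ between libraries; lists of fixed length were compared, and what depth adds beyond that was not tested.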

Additional observations from a re-analysis of the deposited data

How the results depend on the processing

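Between the untreated lines, 20 HOX regions were lower and 1 higher in TeloHAEC. With regions and presence limited to the 20000 strongest peaks 13 were lower, of 19 tested, and in the controls of day 1 alone 9, of 26. Leaving out single libraries gave 12 to 19 lower (fewest without TeloHAEC day 0 replicate 2, and 13 without replicate 1) and 0 to 1 higher. The 1 higher call, HOXB4, became 0 when ordered by fold enrichment, with no filter, with the 20000 strongest peaks and with the replicate block, and in the controls of day 1 it was the HOXB13 promoter that was called instead. The remaining alternatives (fold enrichment order, 80% or 1 bp overlap, no filter, normal scores, chromosome centring, day 0 alone) left 15 to 21 lower. Within IL1b, normal scores gave 12 lower and 1 higher, and a fit of only the compared groups 10 lower. Within TNFa, normal scores gave 10 lower and 1 higher, and single libraries left out 4 to 7 lower (7 without Eahy926 TNFa replicate 3) and 0 to 1 higher. In TeloHAEC, the day comparison had 0 calls in either direction with fold enrichment order, 80% overlap, no filter, the 20000 strongest peaks, and with any single library left out. In Eahy926, the day comparison gave 1 lower with fold enrichment order, 3 with 80% overlap, 1 with no filter, 8 with the 20000 strongest peaks, 3 with normal scores, and 0 to 4 without single libraries. The HOXA4 promoter (-0.179, and -0.382 to 0.011 without single libraries) changed sign, to 0.011 without Eahy926 day 0 replicate 2 and 0.567 with day 1 controls alone.

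Replicate numbers do not pair the libraries: the median correlation of same-numbered libraries was -0.006 in TeloHAEC, -0.003 in Eahy926 and -0.005 between the controls of the lines, with 0 pairs above 0.1. With the replicate block 14 of the 20 were lower and 0 regions higher. Depth limits weak regions most: a peak missing from a list may be open below the caller's threshold.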

Other observations

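As a whole, regions near other transcription factors of body region were called at shares near those of all regions, with differences at single promoters. Within 50 kb of 19 such genes 57 regions were tested. TeloHAEC was higher in 8 and lower in 12, and the median change was -0.18 (all regions 19.6%, 18.1% and -0.08). The promoters of TBX2 and TBX3, T-box repressors of heart and limb development, had strong peaks in all 15 Eahy926 libraries and in 0 of TeloHAEC, with changes of -1.45 ± 0.26 and -3.33 ± 0.29 (limma adjusted p = 0.000368 and 7.83e-07). PITX1, a hindlimb factor, had strong peaks in 4 and 0 and was lower (-0.31 ± 0.12, limma adjusted p = 0.0457). TBX20, a T-box factor of the heart, was strong in 5 and 14 libraries and higher in TeloHAEC (0.90 ± 0.28, limma adjusted p = 0.0186), and FOXF1, a forkhead factor of visceral mesoderm, in 0 and 12 and higher (0.93 ± 0.23, limma adjusted p = 0.0045). By whole lists, HAND2, a factor of heart and limb, had a summit at its start in 0 libraries of Eahy926 and 15 of TeloHAEC. MEOX2 and TWIST1 had one in 0 and 13 and in 0 and 10. Strong promoter peaks of HAND2, MEOX2 and TWIST1 were in 5, 1 and 1 libraries of TeloHAEC. TBX2, TBX3, PITX1, TBX20 and FOXF1 had summits in 15, 15, 15, 12 and 15 whole lists of Eahy926. In TeloHAEC these were 12, 6, 4, 15 and 15. The part of list length in these counts was not tested. GATA6 and NR2F2, the latter known from veins, were strong in 15 and 14 and in 15 and 13 libraries. Neither was called between the untreated lines (limma adjusted p = 0.576 and 0.069). NR2F2 was called lower in TeloHAEC within IL1b (-1.55 ± 0.44, limma adjusted p = 0.0139) and within TNFa (-1.54 ± 0.44, 0.0171). GATA6 was called in neither (0.552 and 0.518). CDX1, EMX2 and MEOX1 had no summit in any library. Within a line, no region of this list was called by limma under any treatment, among 47 tested in TeloHAEC and 52 in Eahy926. Over all regions the shares called were 0% to 0.334%, so this count is close to the background and says little about the list.

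Of the 67 HOX regions, 13 had a strong peak in 1 library alone, and 3 had one in all 30: HOXA2 +6.7 kb, HOXB4 -7.1 kb and HOXD4 -10.7 kb. Strong peaks were absent from all TeloHAEC libraries in 30 regions and from all Eahy926 libraries in 10, of which 8 lay in HOXB.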
